A study of Medicago truncatula with 6 samples.

Results

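Fungal accommodation and arbuscule membrane genes were followed in roots of the legume Medicago truncatula colonised by mycorrhizal fungi. The 4 genes described here, of 54762 loci in the deposited table, are VAPYRIN (MTR_6g027840), EXO70I (MTR_1g017910), the blue copper protein gene BCP1 (MTR_7g086190) and MTR_8g103227, a gene like the E3 ubiquitin ligase gene LIN. They were picked by locus with their values in these libraries known, so their levels in the genotypes are given as a description. The study compared wild-type R108 with the Mtphr2 mutant, 3 RNA sequencing libraries each. Both are labelled R108 as the line, both sets of roots were mycorrhizal, and the sources used here give neither the mutated locus and allele nor the fungus, plant age or phosphate supply. Replicates are labelled as technical, so the p-values measure only the spread between these libraries, which may not be that between plants.

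Arbuscules are branched fungal structures inside root cortex cells, wrapped in a plant membrane that the root cell builds as the fungus branches. Vapyrin, a protein with a major sperm protein domain and ankyrin repeats, is needed for the fungus to enter cells and form arbuscules. EXO70I is a subunit of the exocyst, which tethers secretory vesicles to membranes, and is needed for the growth of the membrane around fine arbuscule branches. BCP1 is a copper-binding protein anchored to the plasma membrane and to the membrane around arbuscule trunks. LIN, called CERBERUS in Lotus japonicus, is a U-box ligase required for infection by rhizobia. PHR proteins are MYB-type transcription factors of the phosphate starvation response.

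Estimated counts summed to between 18199040 and 21477169 per library. The arbuscule markers PT4, STR, STR2, RAM1 and RAM2 all had counts. Their summed CPM (the count scaled to a common, TMM-adjusted library size) was 2659, 1270 and 598 in R108 replicates 1, 2 and 3. In Mtphr2 replicates 1, 2 and 3 it was 610.4, 74.4 and 146. By this sum the libraries ranked in the same order as by each of the genes described here. All 7 Casparian strip genes of the root endodermis had counts. They summed to 157, 109 and 329 CPM in R108 replicates 1, 2 and 3 and to 142 to 177 CPM in Mtphr2. Leaf markers of light harvesting and Rubisco, detected for 28 of 35 genes, summed to 132 to 202 and 130 to 214 CPM. Nodule markers were detected for 31 of 625 genes and summed to 461 to 583 CPM in R108 and 404 to 461 CPM in Mtphr2. The part of these marker levels in the values below was not tested. In bulk roots, fewer cells with arbuscules and less RNA per such cell cannot be told apart.

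VAPYRIN had 225, 97.3 and 38.7 CPM in R108 replicates 1, 2 and 3 and 58.8, 11.5 and 22.8 CPM in Mtphr2 replicates 1, 2 and 3. R108 replicate 1 was the highest library and Mtphr2 replicate 2 the lowest, and Mtphr2 replicate 1 lay above R108 replicate 3, so the genotypes overlapped. Its mean was 120.4 ± 95.3 CPM in R108 and 31.0 ± 24.7 CPM in Mtphr2 (SD, n = 3 each, as for every ± below). The fitted log2 fold change of Mtphr2 against R108 was -1.96 with an SE of 0.801, or 3.88-fold lower, and edgeR's quasi-likelihood test gave an adjusted p of 0.301.

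EXO70I, the vesicle tether of the branch membrane, had 71.6, 35.1 and 15.1 CPM in R108 replicates 1, 2 and 3 and 19.0, 3.36 and 7.05 CPM in the Mtphr2 replicates in the same order. The libraries ranked in the same order as for VAPYRIN, with Mtphr2 replicate 1 again between R108 replicates 2 and 3. The means were 40.6 ± 28.7 and 9.79 ± 8.16 CPM. The fitted change was -2.05 on the log2 scale with an SE of 0.775, or 4.15-fold lower, and edgeR gave an adjusted p of 0.279. DESeq2, which uses another estimate of the spread, gave an adjusted p of 0.0459 for EXO70I.

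MTR_8g103227, the LIN-like gene, had 149, 60.9 and 25.5 CPM in R108 replicates 1, 2 and 3 and 34.3, 4.65 and 8.95 CPM in Mtphr2 replicates 1, 2 and 3. Here too R108 replicate 3 was below Mtphr2 replicate 1, and the 6 libraries spanned 32.0-fold. The means were 78.4 ± 63.6 and 16.0 ± 16.0 CPM, and the fitted log2 change was -2.30 with an SE of 0.912 and an adjusted p of 0.290 from edgeR. Its annotation names a U-box and a beta propeller domain, and its closest Swiss-Prot entry is LIN-1 of Lotus japonicus. LIN of Medicago is another locus, MTR_1g090320.

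BCP1 had 88.5, 41.4 and 6.55 CPM in R108 replicates 1, 2 and 3 and 14.2, 2.83 and 3.97 CPM in Mtphr2 replicates 1, 2 and 3. R108 replicate 3 stood further below the other R108 libraries than for the other 3 genes, with a 13.5-fold range among R108 libraries against 4.74-fold to 5.85-fold. The means were 45.5 ± 41.2 and 7.001 ± 6.27 CPM, and the fitted log2 change was -2.71 with an SE of 1.01 and an adjusted p of 0.278 from edgeR. Its estimated counts were not whole in any of the 6 libraries, while those of VAPYRIN, EXO70I and the LIN-like gene were whole throughout. Such fractions in at least 1 library were found for 26.5% of tested genes.

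**Figure D1:**
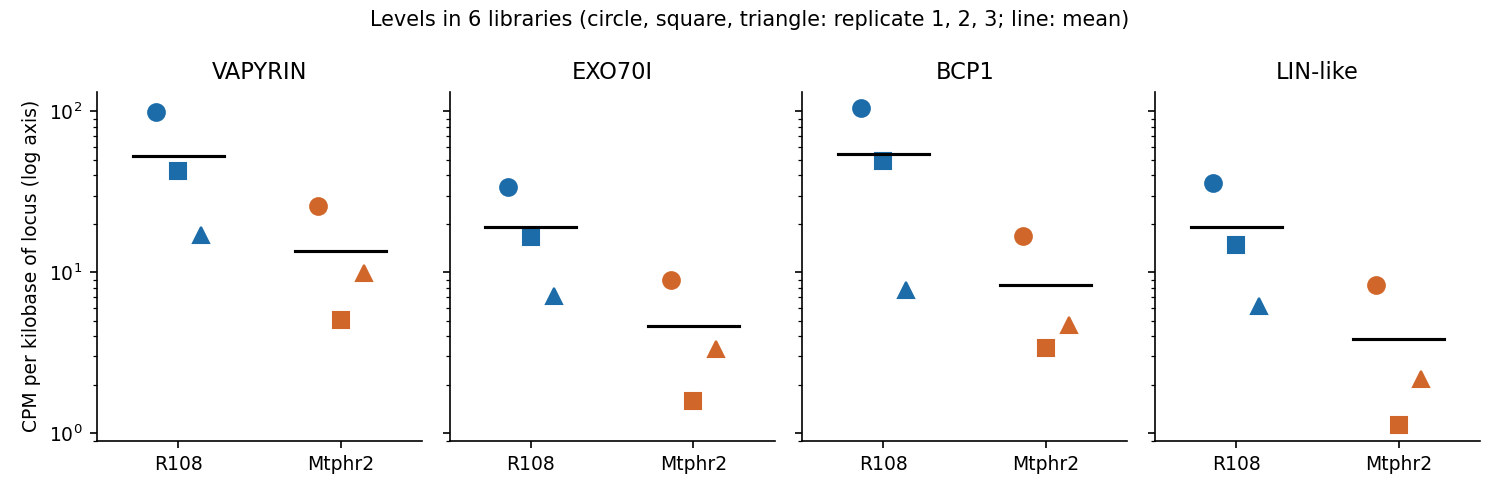
CPM per kilobase of locus (log axis) of VAPYRIN, EXO70I, BCP1 and the LIN-like gene in the 3 R108 and 3 Mtphr2 libraries, with the mean of each genotype as a line. In every panel the R108 triangle (replicate 3) lies below the Mtphr2 circle (replicate 1), so the genotypes overlap.

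All 4 genes passed the filter on low counts, and edgeR called 0 of the 4 at an adjusted p of 0.05 among all 22663 tested genes, where 0.0309% of tested genes were called lower in Mtphr2 and 0.0794% in either direction. Each had an unadjusted p of 0.0348 to 0.0474, and an unadjusted p under 0.05 was found for 16.4% of all tested genes. DESeq2 called 1 of the 4, EXO70I, where it called 2.96% of all tested genes lower and 5.73% in either direction. The fit with a term for the replicate number, the replicate block, called 0 of the 4 and 0.221% of tested genes lower, or 0.335% in either direction, and limma-voom called 0, where it called 0.137% in either direction. In 0 of the 4 did every R108 library lie above every Mtphr2 library, against 10.6% of tested genes. The members were chosen with this comparison known, and nothing is read from these counts.

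The fitted sizes moved when single libraries were left out, and their sign did not change. Without R108 replicate 1, the highest library for all 4, the log2 fold changes were -1.13 for VAPYRIN, -1.36 for EXO70I, -1.78 for BCP1 and -1.44 for the LIN-like gene. Without Mtphr2 replicate 1 they were -2.81, -2.96, -3.75 and -3.53 in the same order. In libraries of the same number, the VAPYRIN level was 3.82-fold, 8.42-fold and 1.70-fold higher in R108 for numbers 1, 2 and 3. For EXO70I these ratios were 3.76, 10.2 and 2.13, for the LIN-like gene 4.33, 12.8 and 2.82, and for BCP1 6.19, 14.3 and 1.64. By this numbering R108 was higher in each comparison, and the ratio was widest in number 2 and narrowest in number 3 for each gene. The sample titles give only a number and do not pair the genotypes. Set across numbers the direction can turn, as Mtphr2 replicate 1 lay above R108 replicate 3 for all 4 genes. The 4 genes ranked the libraries alike and were picked with this comparison known, so the 12 comparisons are not separate results.

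Per kilobase of locus, a scale on which levels can be set between genes, BCP1 at 54.1 ± 48.9 and VAPYRIN at 52.7 ± 41.7 CPM per kilobase were highest in R108, followed by EXO70I at 19.2 ± 13.5 and the LIN-like gene at 19.0 ± 15.4. In Mtphr2 the order of the level was VAPYRIN at 13.6 ± 10.8, BCP1 at 8.32 ± 7.45, EXO70I at 4.62 ± 3.85 and the LIN-like gene at 3.87 ± 3.88 CPM per kilobase. In R108 the step from VAPYRIN to EXO70I was larger than the SD of EXO70I and smaller than that of VAPYRIN, and EXO70I was below VAPYRIN in each of the 6 libraries. The other neighbours in either order differed by less than the SDs of both. The counts of BCP1, not whole in any library, may rest on reads shared with like copies.

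The 4 genes ranked the 6 libraries in the same order, R108 replicate 1, R108 replicate 2, Mtphr2 replicate 1, R108 replicate 3, Mtphr2 replicate 3 and Mtphr2 replicate 2. That order was shared by 217 of the 16106 other annotated genes with a mean of at least 5 CPM, or 1.35%. As a description over 6 libraries, Pearson's r of log2 CPM was 0.998 for EXO70I and the LIN-like gene, 0.996 for VAPYRIN and EXO70I, and 0.966 for BCP1 and the LIN-like gene, the lowest of the 6 pairs. With the genotype means taken out, r was still 0.939 to 0.996. These points share library and depth, and the libraries are labelled as technical replicates.

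Ratios within a library are given as a description of how the levels of the 4 genes stood to each other. EXO70I stood at 0.343 to 0.420 of the VAPYRIN level per kilobase in R108 and at 0.316 to 0.347 in Mtphr2, so the ranges overlapped. The LIN-like gene stood at 0.366, 0.347 and 0.364 of the VAPYRIN level in R108 replicates 1, 2 and 3 and at 0.323, 0.225 and 0.218 in Mtphr2 replicates 1, 2 and 3. Its share was steady in R108 and lower in every Mtphr2 library, most of all in the libraries where VAPYRIN was lowest. The CPM of single genes was apart between genotypes, in either direction, for 22.2% of tested genes. That is another measure than a ratio of genes, for which no such share was taken. BCP1 stood at 1.07, 1.16 and 0.459 of the VAPYRIN level in R108 replicates 1, 2 and 3, and at 0.656, 0.670 and 0.474 in Mtphr2 replicates 1, 2 and 3.

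Against STR, an ABC transporter of the arbuscule membrane, VAPYRIN kept a ratio per kilobase of 1.18 to 1.20 over the R108 libraries and had 1.40, 1.57 and 2.17 in Mtphr2 replicates 1, 2 and 3. The VAPYRIN to STR ratio was higher in each Mtphr2 library than in any R108 library. Against PT4, the phosphate transporter of that membrane, VAPYRIN had a ratio of 0.0755 to 0.104 in R108 and 0.115 to 0.236 in Mtphr2, and EXO70I one of 0.0317 to 0.0364 and 0.0400 to 0.0745. Of the 8 ratios of the 4 genes to STR and PT4, these 3 were apart between genotypes and the other 5 overlapped. The 3 share VAPYRIN or PT4, so they are not separate observations. The CPM of single genes was apart in either direction for 22.2% of tested genes, and no such share was taken for ratios. Among the latter, EXO70I to STR was 0.408 to 0.494 in R108 and 0.486 to 0.725 in Mtphr2, and the LIN-like gene to STR was 0.415 to 0.436 and 0.353 to 0.473. The LIN-like gene to PT4 was 0.0275 to 0.0381 and 0.0372 to 0.0530. BCP1 to STR was 0.540 to 1.38 and 0.918 to 1.05, and BCP1 to PT4 was 0.0347 to 0.111 and 0.0756 to 0.158. These ratios were not tested, and 3 libraries against 3 could not reach an exact permutation p under 0.1.

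**Figure D2:**
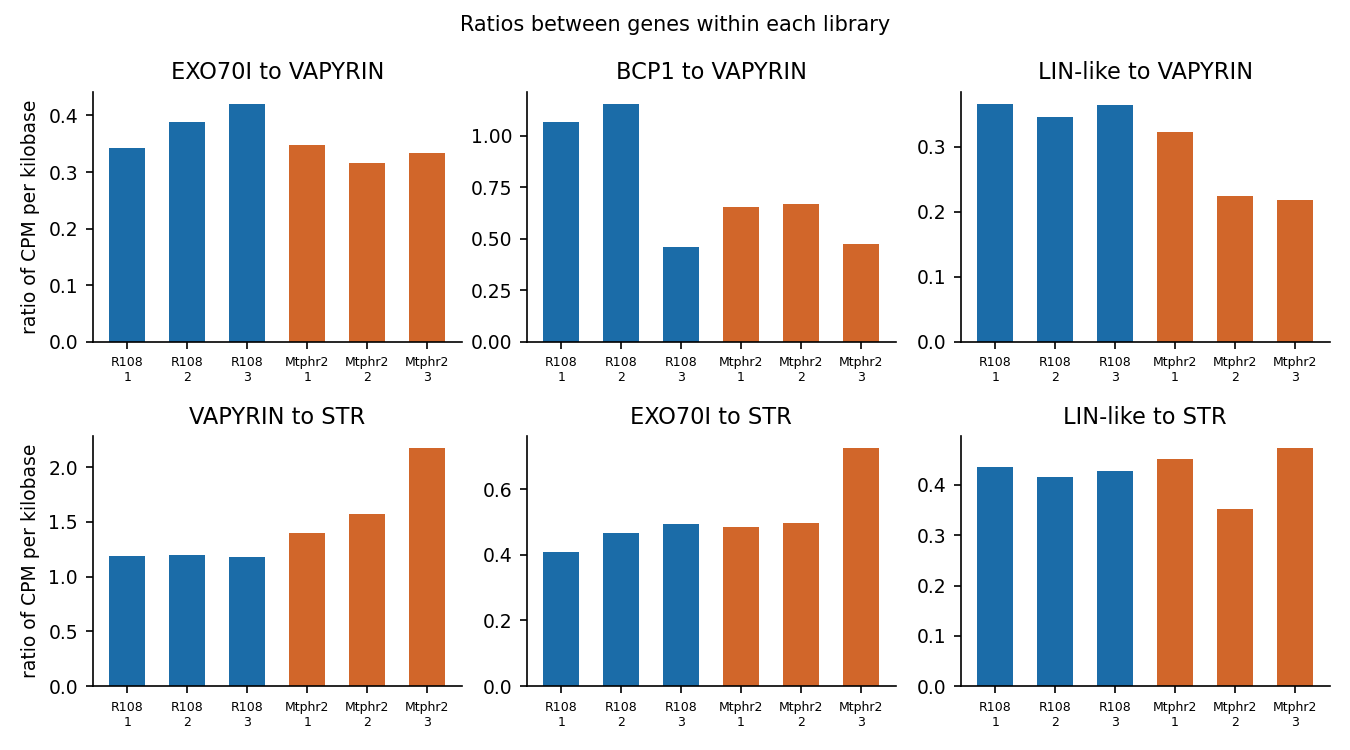
Ratio of CPM per kilobase between the named genes in each library, for R108 (blue) and Mtphr2 (orange) replicates 1, 2 and 3. The LIN-like to VAPYRIN ratio is 0.347 to 0.366 in R108 and 0.218 to 0.323 in Mtphr2, and the VAPYRIN to STR ratio is 1.18 to 1.20 and 1.40 to 2.17.

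Genes annotated to the same Swiss-Prot entries as the 4 members were set beside them. So were genes annotated to LIN, the VAPYRIN-like protein, VAPYRIN of petunia or BCP1b. The choice of these entries was made after values were seen. Of the relatives of VAPYRIN, the VAPYRIN-like gene MTR_1g089180 had 41.8, 29.2 and 27.2 CPM in R108 replicates 1, 2 and 3 and 37.7, 35.5 and 36.2 CPM in Mtphr2 replicates 1, 2 and 3. MTR_8g056020, whose closest entry is VAPYRIN of petunia, had 5.90 to 6.55 and 4.65 to 4.87 CPM. Their log2 fold changes were 0.16 and -0.36, against -1.96 for VAPYRIN itself. Neither showed the steep drop from R108 replicate 1 to replicate 3.

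Among exocyst subunits, MTR_1g009620 also has EXO70I as its closest entry, and had 37.5 to 39.2 CPM in R108 and 32.6 to 39.7 CPM in Mtphr2. Its log2 fold change was -0.10 (SE 0.102) against -2.05 for EXO70I, and its libraries spanned a narrow range. A further gene of that entry, MTR_4g008260, was near 1 CPM in both genotypes, at 0.461 to 1.08 and 0.783 to 1.25 CPM.

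BCP1 had relatives whose levels ran alongside its own. Of 11 other loci with BCP1a or BCP1b as the closest entry, 7 were tested and the other 4 had no counts. These loci are those of the version 4.0 genome, and whether the line R108 carries the same copies was not tested. All 7 had negative log2 fold changes, from -1.60 to -2.53, and r of 0.965 to 0.998 with BCP1 over the 6 libraries. MTR_7g086140 had 100.3, 56.5 and 8.72 CPM in R108 replicates 1, 2 and 3 and 17.8, 4.68 and 6.27 CPM in Mtphr2 replicates 1, 2 and 3, the same order of libraries as BCP1. Like those of BCP1, its estimated counts were not whole in any of the 6 libraries. Part of this likeness may thus come from reads shared between the copies, which was not tested. The deposited table gives MTR_7g086140 and BCP1 the same Entrez gene number, and the Swiss-Prot entry BCP1a that matches both names the locus MTR_7g086140. The name BCP1 could thus not be tied to a single one of these copies.

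In the RefSeq gene table of assembly MtrunA17r5.0, another build than the version 4.0 genome of the counts, 7 of these loci, BCP1 included, matched 6 genes in a run of 13 neighbours on chromosome 7. Summed over all 12 loci the level was 1047, 567 and 102 CPM in R108 replicates 1, 2 and 3 and 259, 88.7 and 82.8 CPM in Mtphr2 replicates 1, 2 and 3. BCP1 made up 8.45%, 7.29% and 6.43% of that sum in R108 and 5.48%, 3.19% and 4.80% in Mtphr2. How reads were split among these copies does not enter the sum, while reads shared with loci outside the 12 could, which was not tested. In the sum too, R108 replicate 3 lay below Mtphr2 replicate 1.

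Between those copies lies MTR_7g086150, annotated to an SPX domain membrane protein over 198 bases, which was singled out after its values were seen. It had 17.2, 10.3 and 1.81 CPM in R108 replicates 1, 2 and 3 and 2.21, 1.59 and 1.35 CPM in Mtphr2 replicates 1, 2 and 3. Like those of BCP1, its estimated counts were not whole in any of the 6 libraries.

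Relatives of the LIN-like gene were mixed. LIN itself had 151, 100.2 and 78.9 CPM in R108 replicates 1, 2 and 3 and 104, 91.1 and 71.9 CPM in Mtphr2 replicates 1, 2 and 3, a log2 fold change of -0.31 (SE 0.259). The U-box gene MTR_7g005940, whose closest entry is LIN, had 42.3, 20.7 and 7.85 against 18.9, 5.07 and 7.90 CPM, with r of 0.946 to the LIN-like gene. MTR_4g083620, also annotated to LIN, had 7.60, 3.28 and 1.57 against 2.66, 0.138 and 0.905 CPM, with r of 0.970, and its lowest library held 3 counts. LIN and MTR_2g028940 had r of 0.765 and 0.770 with the LIN-like gene.

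**Figure D3:**
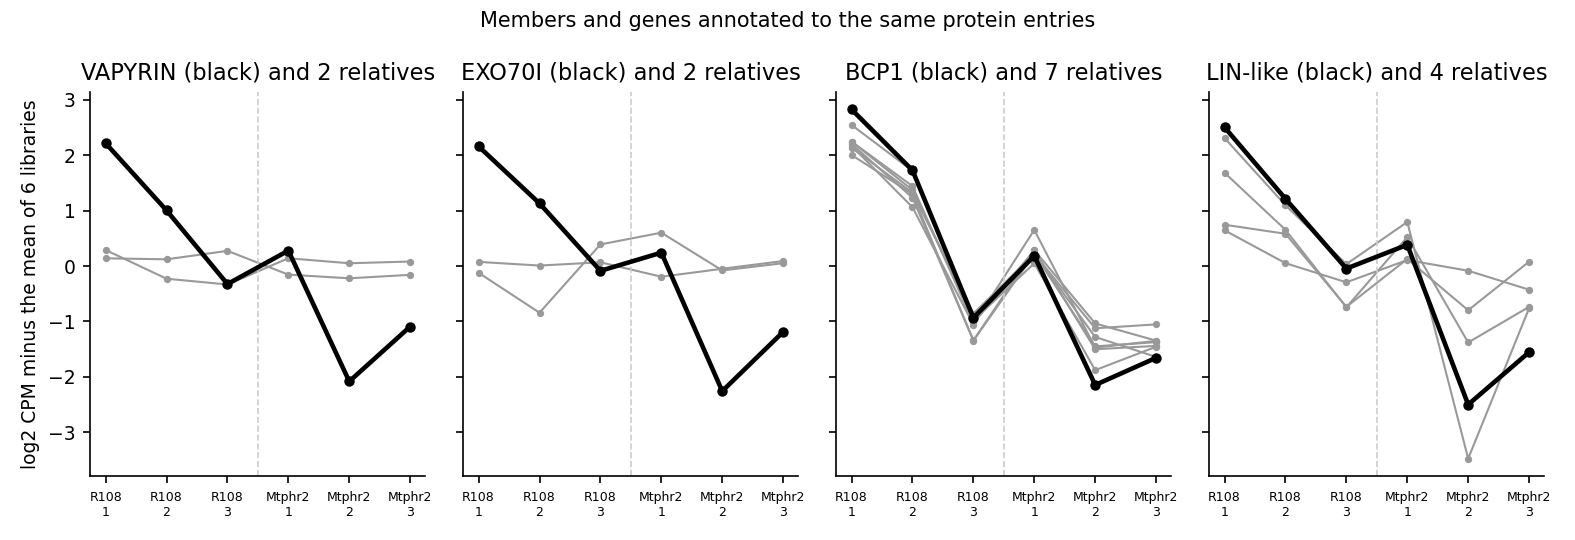
log2 CPM of each gene minus its mean over the 6 libraries, for each member (black) and its tested relatives (grey), with R108 libraries left of the dashed line and Mtphr2 libraries right. The 7 relatives of BCP1 follow it, while the 2 relatives each of VAPYRIN and EXO70I stay within 1 unit of 0.

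Of 9 other genes known from microbial accommodation, mostly of rhizobial infection, 6 were tested. Their median log2 fold change was -0.44, against 0.02 over all tested genes. Of them edgeR called 0, with 1 at an unadjusted p under 0.05 and 1 called by DESeq2. Over all tested genes, 16.4% had such a p and DESeq2 called 5.73%. FLOT4 (MTR_3g106430), a flotillin of rhizobial infection, stood at 84.8 ± 73.1 CPM in R108 against 22.9 ± 19.8 in Mtphr2. Its log2 change was -1.89, with an adjusted p of 0.337 from edgeR. Like those of BCP1, its estimated counts were not whole in any of the 6 libraries. SYP132 (MTR_2g088700), a t-SNARE of symbiotic membranes, had 84.8 ± 6.66 and 66.9 ± 3.66 CPM, with a log2 change of -0.34 and adjusted p-values of 0.208 from edgeR and 0.0397 from DESeq2. Every R108 library was above every Mtphr2 library for SYP132, as in 10.6% of tested genes.

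NF-YA1, a transcription factor of nodulation, had 1.29 ± 1.22 and 0.426 ± 0.331 CPM, and RPG, a coiled-coil protein of infection threads, had 0.835 ± 0.0568 and 1.44 ± 1.32 CPM. FLOT2 had 5.57 ± 2.10 and 3.85 ± 0.302 CPM, with estimated counts not whole in 5 libraries. The remaining 3, SYMREM1, NPL and CBS1, had too few counts to be tested, and NPL, a pectate lyase, had none. Likeness to the 4 members was set only for genes with a mean of at least 5 CPM, here FLOT4, SYP132 and LIN. FLOT4 had an r of 0.948 to their mean over 6 libraries, against 0.862 for SYP132 and 0.792 for LIN.

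The 5 transport genes of the arbuscule membrane, PT4, STR, STR2, the proton pump gene HA1 and the ammonium transporter gene AMT2;3, had a median log2 fold change of -2.35. Of these 5, edgeR called 0, with 4 at an unadjusted p under 0.05, against 16.4% of all tested genes, and DESeq2 called 0. The list was chosen with earlier results of these data known, and nothing is read from this count. In R108 against Mtphr2, PT4 stood at 976 ± 664 and 177 ± 197 CPM, HA1 at 428 ± 382 and 84.0 ± 89.6 CPM, and STR at 135 ± 107 and 26.7 ± 25.7 CPM. STR2 stood at 96.5 ± 78.2 and 21.5 ± 15.5 CPM and AMT2;3 at 2.65 ± 2.54 and 0.442 ± 0.384 CPM, with 2 counts in its lowest library. As with the 4 members, the SD was most of the mean or more for each. STR2 had an r of 0.997 to the mean of the 4 members, HA1 0.995, STR 0.994 and PT4 0.976.

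Other parts of the secretory machinery had medians near that of all genes. Of 26 tested exocyst genes other than EXO70I, 13 had negative and 13 positive log2 fold changes (median -0.03), and edgeR called 0, with 5 at an unadjusted p under 0.05 and 1 called by DESeq2. MTR_5g073450, whose closest entry is EXO70B1, had 51.6, 47.4 and 47.1 CPM in R108 replicates 1, 2 and 3 and 70.4, 65.7 and 94.1 CPM in Mtphr2 replicates 1, 2 and 3, with a log2 change of 0.66 and adjusted p-values of 0.182 from edgeR and 0.0145 from DESeq2. The other named exocyst genes, MTR_2g096230 at 47.3 ± 30.6 and 73.6 ± 61.0 CPM and MTR_1g057560 at 6.68 ± 3.64 and 9.51 ± 4.62 CPM, overlapped between genotypes.

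Proteins of the SNARE family drive vesicle fusion. Among 58 tested genes found by SNARE words, 34 had negative and 24 positive log2 fold changes (median -0.06). Of these edgeR called 0, with 6 at an unadjusted p under 0.05, against 16.4% of all tested genes. DESeq2 called 3, of which 1 was SYP132, against 5.73% of all tested genes. The words also took in 10 SNARE-associated or SNARE-interacting genes, which are not SNAREs. Without these, a choice made after the data were seen, 29 of 48 had negative and 19 positive values (median -0.07), with 0 called by edgeR. MTR_4g022570, a synaptobrevin-like gene whose closest entry is VAMP721 of Arabidopsis, had 16.0, 13.2 and 17.7 CPM in R108 replicates 1, 2 and 3 and 54.4, 40.02 and 33.8 CPM in Mtphr2 replicates 1, 2 and 3. Every Mtphr2 library was above every R108 library, and groups were apart in either direction for 22.2% of tested genes. The fitted log2 change was 1.45 (SE 0.208), with adjusted p = 0.0996 by edgeR, 0.0650 by edgeR with the replicate block, and 5.63e-07 by DESeq2.

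The t-SNARE gene MTR_1g056550 had 23.5 ± 11.0 and 45.5 ± 32.3 CPM, and MTR_4g099140, annotated as a plant SNARE, had 54.9 ± 1.06 and 40.2 ± 2.57 CPM (adjusted p = 0.147 by edgeR, 9.23e-04 by DESeq2). Genes of VAP proteins, which share the major sperm protein domain with Vapyrin, had a median of -0.02 over 9 tested. Of these, 0 were called by edgeR or DESeq2 and 2 had an unadjusted p under 0.05, against 16.4% of all tested genes. MTR_4g101020 had 90.2 ± 6.41 and 75.6 ± 3.83 CPM, MTR_5g012420 had 25.8 ± 1.67 and 22.6 ± 1.43 CPM, and MTR_4g118760 had 10.7 ± 3.51 and 11.8 ± 3.82 CPM. Their log2 changes of -0.25, -0.19 and 0.14 stand beside -1.96 for VAPYRIN.

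Of 37 tested blue copper and early nodulin-like genes other than BCP1, 19 had negative and 18 positive log2 fold changes (median -0.07). Of these edgeR called 0, with 8 at an unadjusted p under 0.05, against 16.4% of all tested genes. DESeq2 called 3, against 5.73% of all tested genes. The most negative of the list with at least 5 CPM were the BCP1 copies MTR_7g086140 at -2.53, MTR_7g086220 at -2.05 and MTR_7g086090 at -2.03. MTR_7g086220 stood at 117 ± 94.4 CPM in R108 against 28.4 ± 20.9 in Mtphr2, and MTR_7g086090 had 75.2 ± 60.3 and 18.4 ± 14.1 CPM. The estimated counts of MTR_7g086220 were not whole in any of the 6 libraries. By its words, the LIN family held 2 other tested genes, MTR_4g083620 and MTR_2g028940 at 8.96 ± 4.11 and 6.47 ± 2.06 CPM, with 0 called by edgeR or DESeq2 and 0 at an unadjusted p under 0.05. In each of these lists limma-voom and the replicate block called 0, against 0.137% and 0.335% of all tested genes. Nothing is read from the counts of these lists.

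**Figure D4:**
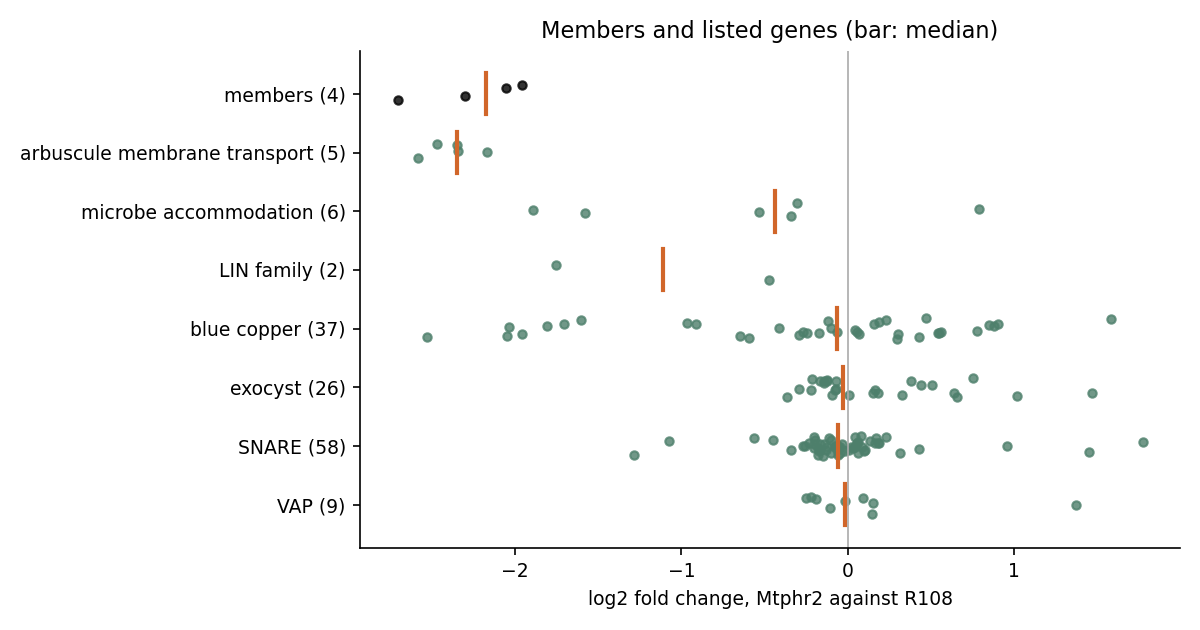
Fitted log2 fold change of Mtphr2 against R108 for the 4 members and for the tested genes of each list, with the number of genes in brackets and the median as an orange bar. The members and the 5 transport genes lie near or below -2, while the exocyst, SNARE, blue copper and VAP medians lie between -0.07 and -0.02.

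The annotated genes most like the mean of the 4 members, over the 6 libraries and among those with at least 5 CPM, were a cationic amino acid transporter gene (MTR_1g030660, r = 0.9994), a peptide transporter gene (MTR_7g098160, r = 0.9993), a putative transmembrane protein gene (MTR_8g071050, r = 0.9992), a berberine-type oxidase gene (MTR_2g031420, r = 0.998) and a multidrug ABC transporter gene (MTR_3g086430, r = 0.998). The amino acid transporter gene stood at 61.3 ± 48.7 CPM in R108 against 14.4 ± 11.1 in Mtphr2. In all, 400 of the 16106 genes, or 2.48%, had an r of at least 0.95 to the mean of the members.

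For single members, the gene most like VAPYRIN was a cytochrome P450 gene, MTR_6g462640 (r = 0.999), at 61.9 ± 54.4 and 15.3 ± 13.4 CPM. The gene most like EXO70I was another P450 gene, MTR_4g005230 (r = 0.999), whose closest entry is beta-amyrin 11-oxidase of a liquorice, followed by a cycloartenol synthase gene, MTR_7g062020, and a germin-like gene, MTR_2g086620. BCP1 was most like the lectin gene LEC7 (MTR_8g068030, r = 0.999). Its copy MTR_7g086140, which may share reads with it, was also among the 5 most like it. The LIN-like gene was most like a receptor-like kinase gene, MTR_2g008740 (r = 0.9997), then an ABCB transporter gene, MTR_8g022270, and HA1. Likeness in r says nothing of size: MTR_0667s0010, an F-box gene among the 5 most like VAPYRIN (r = 0.997), had 9.04 ± 0.633 and 8.17 ± 0.605 CPM.

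**Figure D5:**
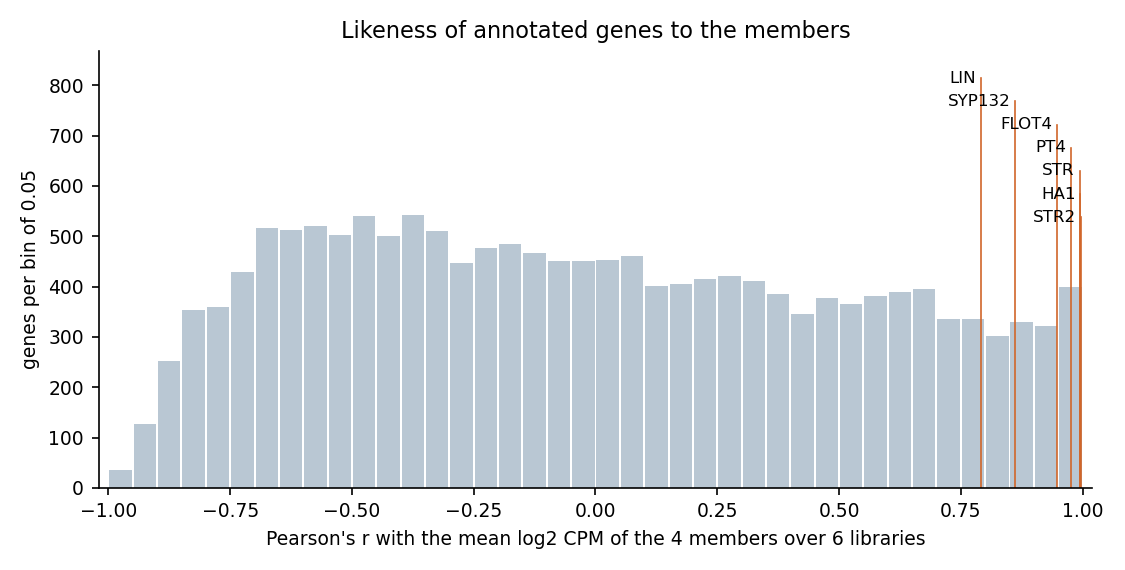
Number of annotated genes per bin of Pearson's r between their log2 CPM and the mean of the 4 members over 6 libraries, with named genes marked by lines. STR2, HA1, STR and PT4 lie at 0.976 to 0.997, FLOT4 at 0.948, SYP132 at 0.862 and LIN at 0.792.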

How the data were processed

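Mycorrhizal root RNA was read with an Illumina NovaSeq 6000 instrument. Reads were aligned and assembled against version 4.0 of the Medicago truncatula genome with HISAT2 and StringTie, per the labels' protocols. DESeq2 is named in the submitters' processing notes. For tool versions and the counting program, nothing is given in the sources used here. Values are estimated counts (expected counts) made by the authors from these alignments and deposited with 2 decimals, without normalization, for 54762 loci in 6 libraries. Among loci with any count, 81.3% to 82.5% of the values of each library were whole within 0.005. They were rounded for the count models.

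Genes passing edgeR's filterByExpr (minimum count 10, total 15; 22663 genes) were scaled by TMM and compared with edgeR (quasi-likelihood test, Benjamini-Hochberg adjustment over all tested genes at 0.05; R 4.3.3, edgeR 4.0.16, DESeq2 1.42.0, limma 3.58.1, data.table at 1.17.8, matplotlib 3.10.9). Scripts were checked on simulated data with known changes. The SE of a log2 fold change was derived from edgeR's test, as its absolute value divided by the square root of the quasi-likelihood F statistic. CPM uses TMM-scaled sizes, divided by the deposited locus length for CPM per kilobase. Likeness uses log2 CPM with a prior count of 2. The members had at least 61.4 estimated counts in every library.

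Members and lists were chosen with earlier results of these data known. Lists by words were matched in the gene descriptions. The genes named are the members, the tested lists by locus, the 3 largest changes per list by words at 5 CPM or more on average, the relatives by Swiss-Prot entry, chosen after values were seen, and genes among the 5 most like the members' mean or a member. Closest proteins by sequence search and promoter motifs were not used here. Libraries of the same number, after genotype means were removed, correlated across genes at 0.377, 0.151 and 0.168, all above 0.1, so a fit with the number as a term (the replicate block) was run. Other pairs between genotypes ran from -0.310 to 0.187. Libraries within a genotype differed by a chi-square per degree of freedom of 25.4 to 52.6, so none was a duplicate. Such a spread is wider than the sampling of reads alone gives, and what the technical label covers was not settled here.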

Additional observations from a re-analysis of the deposited data

How the results depend on the processing

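The log2 fold changes of VAPYRIN, EXO70I, BCP1 and the LIN-like gene kept their sign under all 12 alternatives, and none of the 4 passed except EXO70I by DESeq2 (-2.07, adjusted p = 0.0459). With 1 library left out they ran from -2.81 to -1.13 for VAPYRIN, -2.96 to -1.36 for EXO70I, -3.75 to -1.78 for BCP1 and -3.53 to -1.44 for the LIN-like gene, with adjusted p by edgeR of 0.153 to 0.551. The replicate block gave -1.92, -2.10, -2.47 and -2.41, with adjusted p by edgeR of 0.129, 0.111, 0.138 and 0.0890, and changed no call among the members or the listed genes. Over all genes 18 were called, against 76 with the replicate block, 1298 by DESeq2, 31 by limma-voom, 34 with no filter on low counts, and 7 to 44 with 1 library left out (44 when Mtphr2 replicate 1 was dropped, 7 when either other Mtphr2 library was, 8 when R108 replicate 2 or replicate 3 was). The cause was not tested. DESeq2 called 1 microbe accommodation gene, 1 exocyst gene, 3 SNARE genes and 3 blue copper genes, where edgeR called 0 in each. It called 5.73% of all tested genes. The median r over the 6 pairs of members was 0.974 to 0.994 with 1 library left out. Motif windows were not run, since promoter sequence was not used here.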
